A study of Mus musculus with 8 samples.

Results

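The genes examined here, 8 in number, mark the fate of cortical interneurons or steer their migration: Lhx6, Satb1, Maf, Sst, Npy, Vip, Cxcr4 and Ackr3. They were taken by symbol from 48709 counted genes, and all 8 were among the 16525 genes abundant enough to be tested. Expression was measured by RNA sequencing in the cortex of C57BL/6J mice at postnatal day 3 (P3), in 4 dcKO_hGFAP-Cre and 4 control samples. The dcKO_hGFAP-Cre mice (dcKO from here on) carry loxP sites in both copies of BAF155 (Smarcc1) and BAF170 (Smarcc2), the scaffolding subunits of the BAF chromatin remodelling complex. In them a human GFAP promoter drives Cre recombinase in radial glia of the dorsal telencephalon (dTel), and the mutants died soon after birth. The methods of the study give its controls as carrying Cre with 1 floxed and 1 intact copy of each gene, whereas the sample titles call them wild type. The methods name the dissected tissue dTel, and nothing in the labels says that each sample came from its own animal, so the p-values below measure the spread between samples.

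Cortical interneurons are inhibitory, GABA-releasing neurons. Unlike the excitatory neurons of the cortex, which arise from dTel radial glia, they are born in the ganglionic eminences of the ventral telencephalon and migrate into the cortex. The medial ganglionic eminence (MGE) gives rise to the parvalbumin and somatostatin classes, and the caudal ganglionic eminence (CGE) to the Vip class and others. The transcription factor Lhx6 is switched on as cells leave the MGE cell cycle and stays on afterwards, Satb1 and Maf act later in the same lineage, and the peptides Sst, Npy and Vip mark mature classes. Cxcr4 is the receptor through which migrating interneurons sense the chemokine Cxcl12, and Ackr3 is an atypical receptor that binds the same ligand and clears it. Whether the interneurons of these mice carried the deletion was not measured.

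Of the 8 genes, 5 differed between dcKO and control cortex. Sst, Cxcr4, Ackr3 and Lhx6 rose and Satb1 fell, while Maf, Npy and Vip did not pass the test. Sst and Cxcr4 were about 2-fold higher, with a fold of 2.03 (95% interval 1.73 to 2.40) and 2.12 (1.69 to 2.65), and Satb1 was at 0.453 of its control level (0.389 to 0.528). Of all genes tested, 37.5% were called in either direction, 18.6% as higher and 18.9% as lower, where a call is a Benjamini-Hochberg value below 0.05 over all 16525 genes (quasi-likelihood test of edgeR). Against this background 4 of 8 members were called higher and 1 lower. The dcKO and control samples did not overlap in 4 members, as in 34.4% of all genes. The median log2 fold change of the 8 members was 0.28, beside 0.02 over all genes tested. In bulk tissue a change in the number of cells of a type and a change in RNA per cell cannot be told apart.

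**Figure D1:**
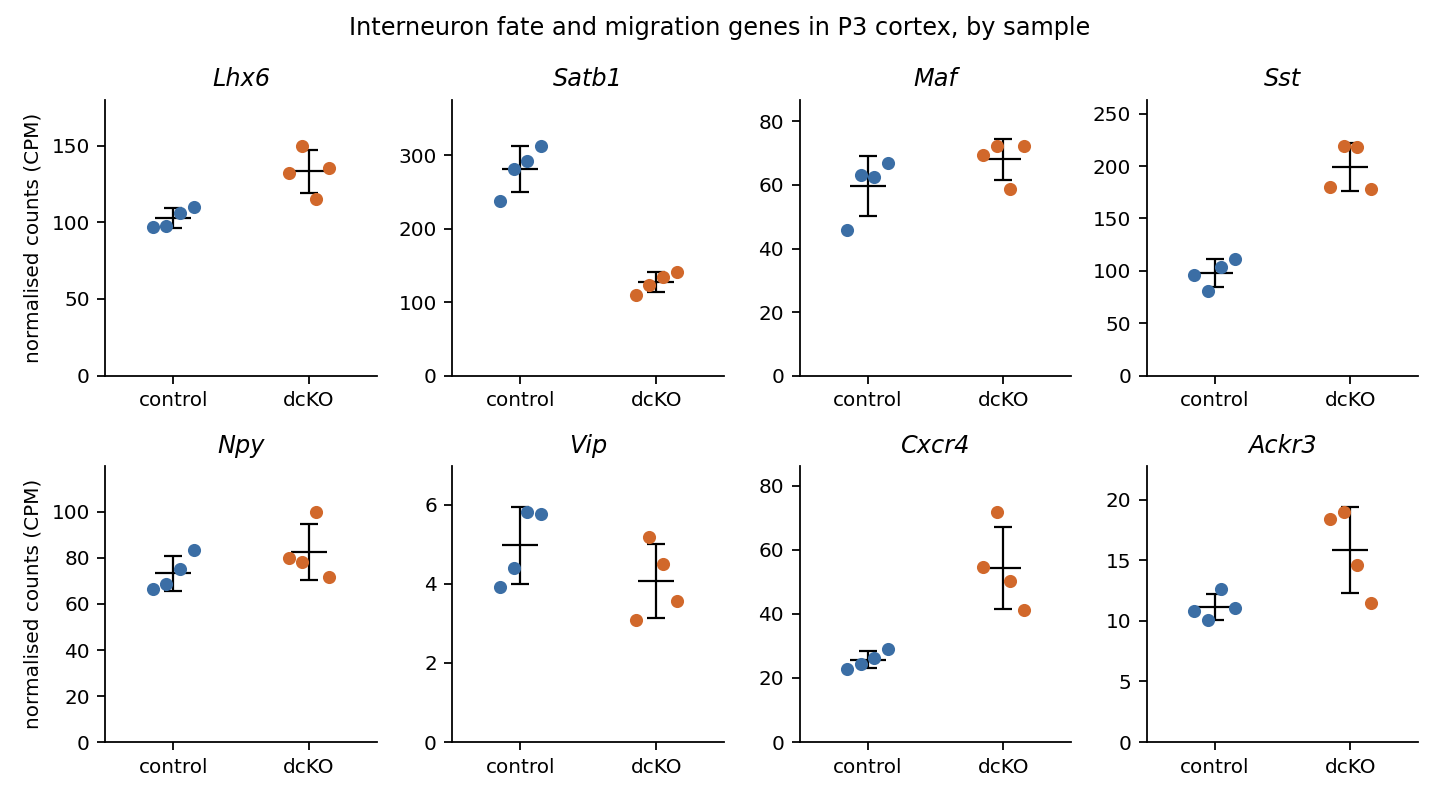
Normalised counts (CPM, vertical axes starting at 0) of the 8 genes in each of 4 control (blue) and 4 dcKO (orange) P3 cortices, replicates 1 to 4 from left to right; black bars are the mean and SD. The groups do not overlap for Lhx6, Satb1, Sst and Cxcr4, and they overlap for Maf, Npy, Vip and Ackr3.

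Total counts were between 21126713 and 32110285 per sample, and 3 counts in a sample corresponded to between 0.093 and 0.142 CPM (counts scaled by library size after TMM normalisation), far under every member. The deleted genes Smarcc1 and Smarcc2 were lower in the dcKO samples, with log2 fold changes of -0.97 (adjusted p = 5.44e-06) and -0.77 (adjusted p = 2.28e-05, edgeR for both), and the counts include exons outside the deleted parts and cells without Cre. The mitochondrial share of counts was 2.06% to 3.23% in control and 3.57% to 5.47% in dcKO samples. The dcKO replicates 1 and 2 stood apart by the choroid plexus transcript Ttr, at 584 and 1128 CPM beside at most 15.8 CPM elsewhere. The dcKO replicates 1 and 3 had the most meningeal and striatal transcript, so members are also given without these libraries where that changed a call.

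Lhx6, the LIM-homeodomain factor that specifies MGE-derived interneurons, lies on chromosome 2 of mm10 from 36081953 to 36105408 on the minus strand (ENSMUSG00000026890). It was at 96.8, 97.6, 106 and 110.0 CPM in control replicates 1 to 4 and at 132, 150.0, 115 and 136 CPM in dcKO replicates 1 to 4. Every dcKO sample was above every control, by a small margin for replicate 3. The means were 103 ± 6.44 CPM (SD, n = 4) and 133 ± 14.3 CPM (SD, n = 4), which differed by 0.38 on the log2 scale (SE 0.09, edgeR adjusted p = 0.00584). The gene was called with each of the 8 samples left out in turn, but without dcKO replicates 1 and 2 the log2 fold change was 0.29 and the adjusted p 0.0823. An exon of Lhx6 shares its bases with the small RNA gene Gm27953 on the same strand.

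Satb1, a chromatin organiser needed for the maturation of Sst interneurons and also present in projection neurons, moved the other way. It lies on chromosome 17 from 51736187 to 51833290 on the minus strand (ENSMUSG00000023927). Its level was 238.5, 282, 292 and 313 CPM in control replicates 1 to 4 and 110.0, 124, 135 and 141 CPM in dcKO replicates 1 to 4. The highest dcKO sample stayed far under the lowest control. The means were 281 ± 31.4 CPM (SD, n = 4) and 127 ± 13.7 CPM (SD, n = 4), a log2 fold change of -1.14 (SE 0.10, edgeR adjusted p = 7.3e-06). Satb1 was the member whose difference varied least between sequencing lanes, at -1.15 on lane 5, -1.12 on lane 6 and -1.15 on lane 7. Unconfirmed transcript models, 6 in number, lie within its locus, and Gm36931 and Gm6934 share exon bases with it.

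Maf, a leucine zipper factor that acts in postmitotic MGE-derived cells, lies on chromosome 8 from 115682942 to 115707794 on the minus strand (ENSMUSG00000055435). It was at 45.8, 63.2, 62.6 and 67.0 CPM in control replicates 1 to 4 and at 69.3, 72.2, 58.7 and 72.4 CPM in dcKO replicates 1 to 4. In 3 of 4 dcKO samples the level was above all controls, and in replicate 3 it was inside their range. The log2 fold change was 0.19 (95% interval -0.06 to 0.45, edgeR adjusted p = 0.219), so both a moderate rise and a small fall lie within the error. Its exons overlap the antisense gene Gm15655, and the library kit does not keep strand, so reads from the shared bases cannot be told apart.

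Among the peptides, Sst differed most. It encodes somatostatin, which marks a large class of MGE-derived interneurons, and lies on chromosome 16 from 23889573 to 23890958 on the minus strand (ENSMUSG00000004366). Its level was 95.6, 80.9, 104 and 111 CPM in control replicates 1 to 4 and 180.4, 219.4, 218.5 and 178.5 CPM in dcKO replicates 1 to 4. The lowest dcKO sample was above the highest control by a wide margin. The means were 97.9 ± 13 CPM (SD, n = 4) and 199 ± 22.8 CPM (SD, n = 4), a log2 fold change of 1.02 (SE 0.11, edgeR adjusted p = 3.04e-05). Leaving out each sample in turn gave log2 fold changes between 0.94 and 1.09, and Sst was called in all 8 of these fits.

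Npy encodes neuropeptide Y, which many Sst interneurons and neurogliaform cells make. It lies on chromosome 6 from 49822710 to 49829507 on the plus strand (ENSMUSG00000029819). Npy was at 66.3, 68.6, 75.2 and 83.3 CPM in control replicates 1 to 4 and at 80.1, 78.1, 99.9 and 71.7 CPM in dcKO replicates 1 to 4. Only dcKO replicate 3 was above all controls. The log2 fold change was 0.17 (95% interval -0.07 to 0.41, edgeR adjusted p = 0.246), and its upper bound lies under the lower bound of 0.79 for Sst.

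Vip encodes vasoactive intestinal peptide, a marker of CGE-derived interneurons that target other interneurons. It lies on chromosome 10 from 5639218 to 5647617 on the plus strand (ENSMUSG00000019772). Vip was the least abundant member, with 72 to 175 counts per sample. It was at 3.91, 4.39, 5.81 and 5.76 CPM in control replicates 1 to 4 and at 3.08, 5.17, 4.50 and 3.56 CPM in dcKO replicates 1 to 4. A pair of the dcKO samples was under all controls and the others were inside their range. The log2 fold change was -0.29 (95% interval -0.73 to 0.14, edgeR adjusted p = 0.272), an interval that holds both a marked fall and a slight rise.

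The proximal promoters of Sst and Vip are shown because the cyclic AMP response element in the Sst promoter is the classical binding site of CREB, and Vip and Sst differed in their change between the groups (their ratio is tested further on). The full element TGACGTCA and its shorter form TGACG were searched on both strands in the 250 bases before each RefSeq transcription start (GRCm38.p6), and every full element also holds the shorter form. Entries were found for 7 of the 8 members. The stretches below are 30 bases each, read 5′ to 3′ on the strand of the gene, with the match in capitals, at chr16:23890874-23890903 (minus strand) for Sst and chr10:5639127-5639156 (plus strand) for Vip.
Sst: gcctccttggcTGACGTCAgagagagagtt
Vip: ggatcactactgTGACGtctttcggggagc
The full element of Sst begins 48 bases before the start, and the shorter form in Vip 79 bases before it. The stretch of Sst lies inside the gene bounds given above, which reach further upstream than the RefSeq start used here. TGACGTCA occurred in 1.55% of 32851 promoters of this length and, among the members, in that of Sst alone. TGACG occurred in 17.77% of all promoters and, among the members, in those of Sst and Vip. The matches describe these letters only.

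Cxcr4, the G protein-coupled receptor for Cxcl12, rose about as much as Sst. It lies on chromosome 1 from 128588199 to 128592293 on the minus strand (ENSMUSG00000045382). Its level was 22.9, 24.3, 26.3 and 29 CPM in control replicates 1 to 4 and 54.5, 71.8, 50.2 and 41.2 CPM in dcKO replicates 1 to 4. All dcKO samples were above all controls, with replicate 2 the highest. The means were 25.6 ± 2.65 CPM (SD, n = 4) and 54.4 ± 12.8 CPM (SD, n = 4), a log2 fold change of 1.08 (SE 0.15, edgeR adjusted p = 2.16e-04). Without dcKO replicates 1 and 2 it was 0.83 (adjusted p = 0.00247).

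Ackr3, also named Cxcr7, lies on chromosome 1 from 90203980 to 90216751 on the plus strand (ENSMUSG00000044337). It was at 10.8, 10.1, 12.6 and 11.1 CPM in control replicates 1 to 4 and at 18.4, 19.0, 14.6 and 11.4 CPM in dcKO replicates 1 to 4. In 3 of 4 dcKO samples the level was above all controls, and replicate 4 was inside their range. The means were 11.2 ± 1.06 CPM (SD, n = 4) and 15.9 ± 3.53 CPM (SD, n = 4), a log2 fold change of 0.50 (SE 0.16, edgeR adjusted p = 0.0242). This call was the least stable of the 5. It was lost when control replicate 2, control replicate 4, dcKO replicate 1 or dcKO replicate 2 was left out (log2 fold change 0.40 to 0.49, adjusted p up to 0.0787), and without both dcKO replicates 1 and 2 the log2 fold change was 0.22 (adjusted p = 0.358). Without dcKO replicates 1 and 3 it was 0.44 (adjusted p = 0.104), also not called. Cxcl12, the ligand of both receptors, was at 27.4 to 42.2 CPM in control and 18.4 to 48.9 CPM in dcKO samples, a log2 fold change of 0.10 (adjusted p = 0.82 from the same test).

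**Figure D2:**
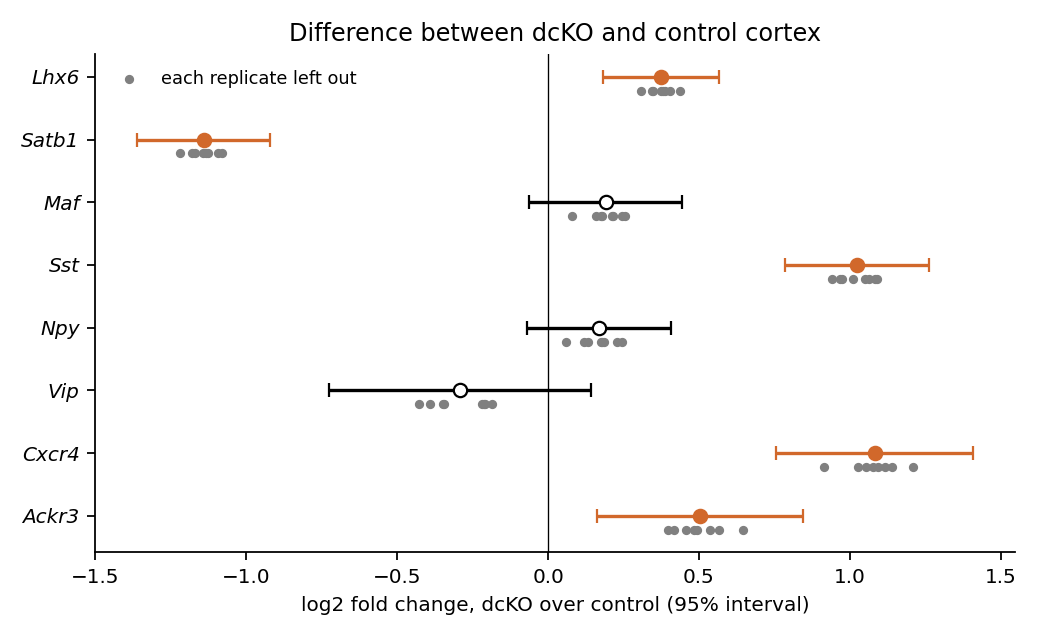
Log2 fold change of each gene between 4 dcKO and 4 control samples with its 95% interval (horizontal axis, edgeR), filled orange for an adjusted p under 0.05 and open black otherwise; grey points are the values with each sample left out. The intervals of Maf, Npy and Vip cross 0, and the grey points of Cxcr4 spread from 0.91 to 1.21.

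Lanes 5, 6 and 7 each held both groups, replicates 1 and 2 on lane 5 and 1 pair of samples on each of the others, and the differences within lanes are given as values with no test. With the lane as a factor in the edgeR fit, 4 members were called higher and 1 lower, as without it. On all 3 lanes Lhx6, Sst, Cxcr4 and Ackr3 were higher and Satb1 and Vip lower in dcKO samples. Cxcr4 differed by 1.41 on lane 5, 0.93 on lane 6 and 0.50 on lane 7 on the log2 scale. Ackr3 differed by 0.84, 0.21 and 0.05 on these lanes, and Lhx6 by 0.53, 0.12 and 0.30. For Maf and Npy the sign was not the same on all lanes.

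Levels of different genes were compared per length, as CPM per kilobase of the longest principal transcript. Counts were per gene, and all annotated exons span more bases than that transcript in several members. For Satb1 they span 19027 beside 6243 bases and for Lhx6 4805 beside 3345 bases. The order below, that of Satb1 most of all, therefore depends on the length used. In control cortex Sst, at 136 ± 18.0 (SD, n = 4), and Npy, at 130 ± 13.4 (SD, n = 4), were the most abundant members, and their samples overlapped. They were followed by Satb1 at 45.1 ± 5.04, Lhx6 at 30.7 ± 1.93, Cxcr4 at 14.2 ± 1.47 and Maf at 9.38 ± 1.49 CPM per kilobase, none of which overlapped with its neighbour. Ackr3 at 3.64 ± 0.345 and Vip at 3.25 ± 0.631 CPM per kilobase were lowest and overlapped. By this length, the order changed in its middle in dcKO cortex. Sst stood alone at 276 ± 31.7 and Npy followed at 146 ± 21.5 CPM per kilobase. Lhx6 at 39.8 ± 4.27 and Cxcr4 at 30.1 ± 7.11 CPM per kilobase overlapped, and Satb1 had dropped below both, to 20.4 ± 2.19, where its highest sample, at 22.7, nearly met the lowest of Cxcr4, at 22.8. Maf, Ackr3 and Vip kept the lowest places, at 10.7 ± 1.01, 5.18 ± 1.15 and 2.67 ± 0.613 CPM per kilobase.

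Ratios of counts within a sample do not depend on how libraries are scaled, so 7 ratios of members were compared between the groups. Sst rose relative to Lhx6, from between 0.8288 and 1.01 Sst counts per Lhx6 count in control samples to between 1.32 and 1.90 in dcKO samples. Npy fell relative to Sst, from 0.694 to 0.848 down to 0.356 to 0.457, and Vip relative to Sst from 0.0409 to 0.0560 down to 0.0171 to 0.0236. In dcKO cortex the peptides thus shifted in their proportions towards Sst. Satb1 fell relative to Lhx6, from 2.46 to 2.89 counts per Lhx6 count down to 0.826 to 1.17. The ratio of Ackr3 to Cxcr4 fell from 0.382 to 0.479 down to 0.264 to 0.338. In these 5 ratios the groups did not overlap, and the two-sided exact permutation test over 70 arrangements gave p = 0.0286, the smallest it allows, and 0.04 after adjustment over the 7 ratios. Each of the 5 holds a member called above, and several share Sst or Lhx6, so they are not independent results. Npy to Lhx6 was 0.685 to 0.757 in control and 0.521 to 0.867 in dcKO samples (two-sided exact permutation p = 0.257). Maf to Lhx6 was 0.473 to 0.648 in control and 0.481 to 0.534 in dcKO samples (two-sided exact permutation p = 0.171, adjusted 0.2).

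**Figure D3:**
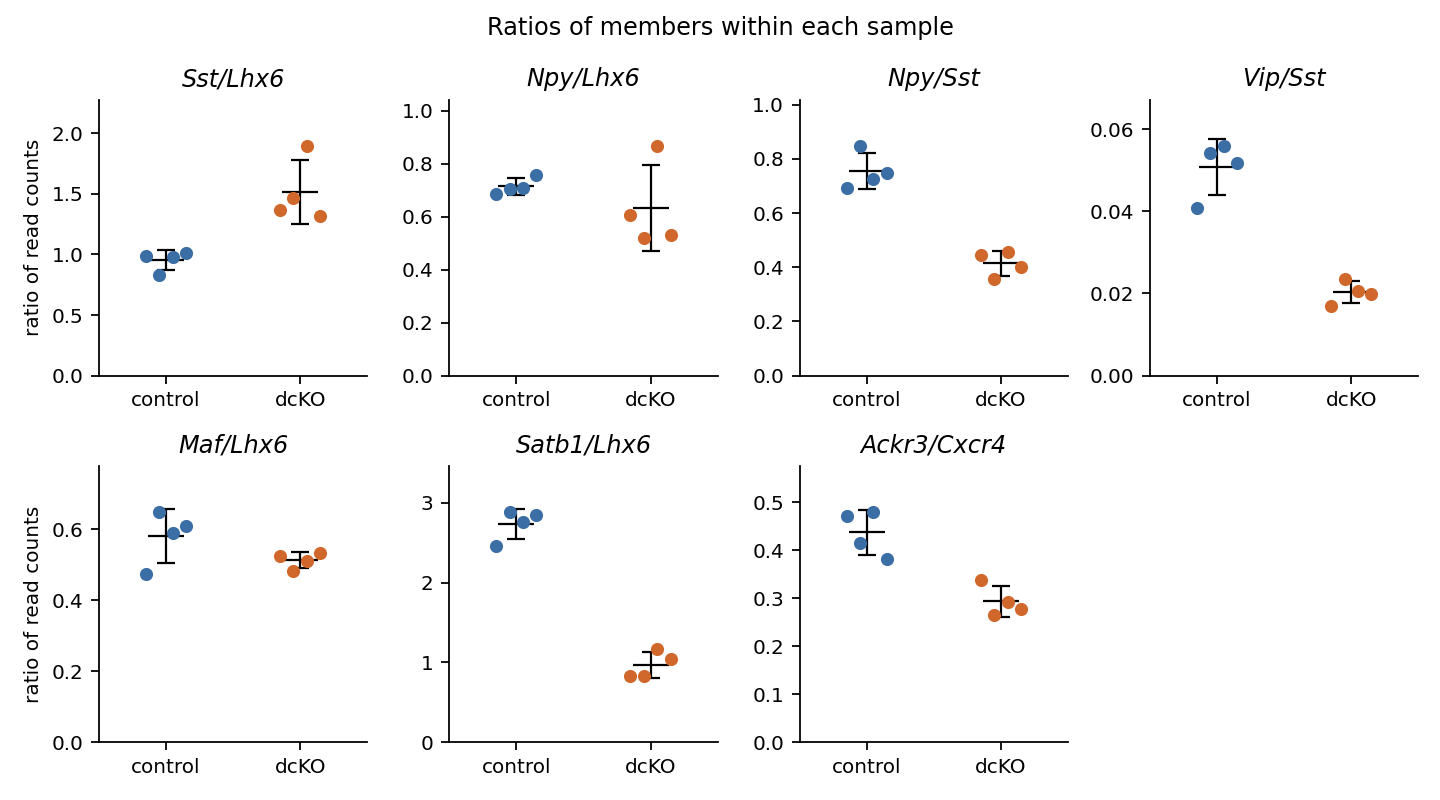
Ratio of the read counts of 2 members within each sample (vertical axes from 0), for 4 control (blue) and 4 dcKO (orange) samples with mean and SD in black. The groups are apart for Sst/Lhx6, Npy/Sst, Vip/Sst, Satb1/Lhx6 and Ackr3/Cxcr4 and overlap for Npy/Lhx6 and Maf/Lhx6.

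The members were set beside genes of general GABAergic identity, of interneuron classes and of migration. Of 11 genes of general GABAergic identity, 10 rose (median log2 fold change 0.76), among them the GABA-synthesising enzymes Gad1 (0.87, adjusted p = 1.44e-05) and Gad2 (0.76, adjusted p = 0.00126, edgeR for both). The log2 fold change of 0.38 for Lhx6 lay under this median and that of 1.02 for Sst above it. These GABAergic genes are not particular to cortical interneurons, and markers of striatal projection neurons also rose (median 1.60). Of 14 tested MGE-derived interneuron genes other than the members, 7 rose and 3 fell. Nkx2-1, the MGE patterning factor that activates Lhx6, was at 1.01 to 1.58 CPM in control and 3.56 to 4.66 CPM in dcKO samples, a log2 fold change of 1.63 (adjusted p = 9.7e-05 from the same test). Tac1, which encodes substance P, Lhx8, a factor of cholinergic neurons, and Calb1, which encodes a calcium-binding protein, rose by log2 fold changes of 2.30, 2.03 and 1.29. Among dcKO samples Tac1 and Lhx8 were lowest in replicate 2, at 14.1 and 0.424 CPM, where Lhx8 was within the control range. Both were highest in replicate 3, at 47.7 and 2.70 CPM. The striatal marker Penk also had its lowest and highest dcKO levels in these replicates, whereas Calb1 did not. Nos1, the neuronal nitric oxide synthase, Etv1 and Elfn1 were lower, at -0.70, -0.53 and -0.42. Pvalb was at 0.297 CPM or less in every sample and was not tested.

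Of 15 CGE-derived interneuron genes other than Vip, 4 rose and 4 fell (median log2 fold change 0.10). Lamp5 (1.61) and Calb2, which encodes calretinin (1.55), rose most, and the peptide gene Cck (-1.06), Npas1 (-0.71) and Id2 (-0.65) fell most. Whether the MGE and CGE genes changed in interneurons or in other cells was not tested. Of 22 migration genes other than the receptors, 2 rose and 11 fell (median -0.48), in the direction opposite to Cxcr4 and Ackr3. The guidance ligands Slit2 and Sema3a rose by 0.53 and 0.38, and Cntn2 (-1.17), the semaphorin receptor Nrp1 (-1.16) and the ephrin receptor Epha4 (-0.91) fell most. Many of these migration genes are also expressed by excitatory neurons.

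**Figure D4:**
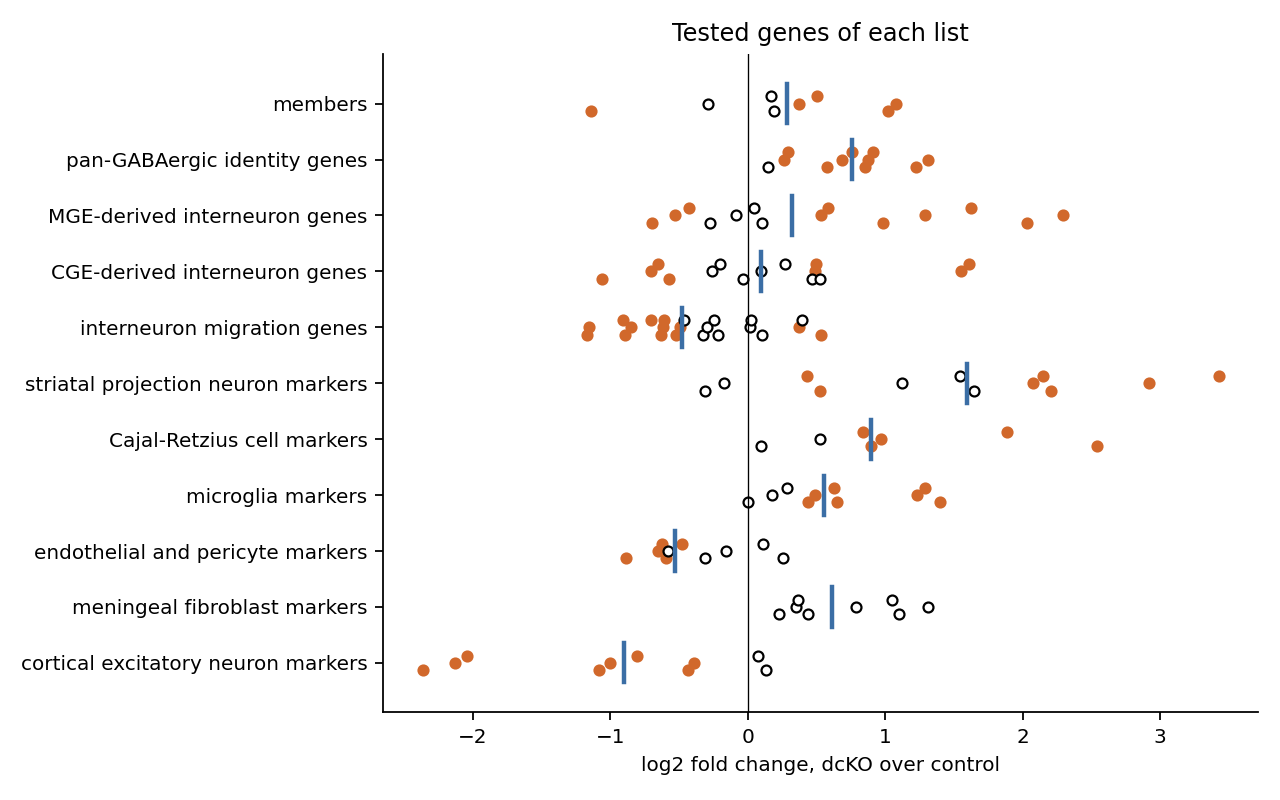
Log2 fold change between dcKO and control cortex (horizontal axis) of each tested gene in 11 lists, filled orange for an adjusted p under 0.05 and open otherwise; blue bars are list medians. The GABAergic list lies to the right of 0, its median at 0.76, while the members spread from -1.14 to 1.08.

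Several members are not particular to interneurons, and markers of other cells moved too. Satb1 fell together with excitatory neuron markers, of which 8 of 10 fell (median log2 fold change -0.90), among them Emx1 (-2.13) and Neurod6 (-2.04). Their summed level was 2083 to 2237 CPM in control and 1159 to 1319 CPM in dcKO samples. Microglia and Cajal-Retzius cells express Cxcr4. Of 10 microglia markers 7 rose (median 0.56), among them Aif1 (1.40), C1qa (1.29) and Trem2 (1.23), and their sum went from 115 to 157 CPM in control to 202 to 234 CPM in dcKO samples. Of 7 Cajal-Retzius cell markers, of which Reln and Ndnf also stand in the CGE list, 5 rose (median 0.89), and the sum was 248 to 429 CPM in control and 351 to 482 CPM in dcKO samples. Ebf3 (2.54), Lhx1 (1.89) and Trp73 (0.97) were highest in dcKO replicate 2, as was Cxcr4. That peak was not particular to Cajal-Retzius cell markers. Calb2, Nr2f1, Nr2f2, Adarb2 and Ndnf of the CGE list and the members Lhx6, Sst and Ackr3 were also highest there. Endothelial cells also express Ackr3, and of 10 endothelial and pericyte markers 5 fell (median -0.53), with sums of 443 to 503 CPM in control and 289 to 440 CPM in dcKO samples. The part of any of these cells in the members' levels was not tested.

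The ventral telencephalon holds Lhx6, Sst and Npy neurons of its own. Of 12 markers of striatal projection neurons 7 rose (median log2 fold change 1.60), with a sum of 505 to 648 CPM in control and 710.1 to 1257 CPM in dcKO samples. Isl1 (3.43), Ppp1r1b (2.92) and Penk (2.21) rose most. Drd1 and Foxp1 had negative log2 fold changes, -0.17 (adjusted p = 0.742) and -0.31 (adjusted p = 0.413, edgeR for both), and were not called. Penk was at 6.69, Drd2 at 2.46 and Adora2a at 6.91 CPM in dcKO replicate 2, all within the control range, although Ppp1r1b was at 276 CPM there beside at most 49.1 CPM in controls. Isl1, at 8.94 beside at most 3.30 CPM, and Meis2, at 257 beside at most 243 CPM, were also above all controls in replicate 2. Drd1 and Foxp1 were under all controls in it. Sst was at nearly the same level in that sample, 219.4 CPM, as in dcKO replicate 3, 218.5 CPM, where the striatal sum was 1223 CPM. Without dcKO replicates 1 and 3, which had the highest striatal and meningeal sums, the log2 fold change of Sst was 1.02 (edgeR adjusted p = 1.93e-04), as with all samples, and that of Lhx6 was 0.47 (adjusted p = 0.00422). In that fit 3 members were called higher, as Ackr3 lost its call. It kept dcKO replicate 4, whose striatal sum of 905 CPM was also above all controls. Of the 5 cholinergic neuron markers 3 could be tested and 2 rose, with a summed level of 1.15 to 2.32 CPM in control and 3.39 to 8.59 CPM in dcKO samples. The part of striatal or cholinergic neurons in the members' levels was not tested.

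**Figure D5:**
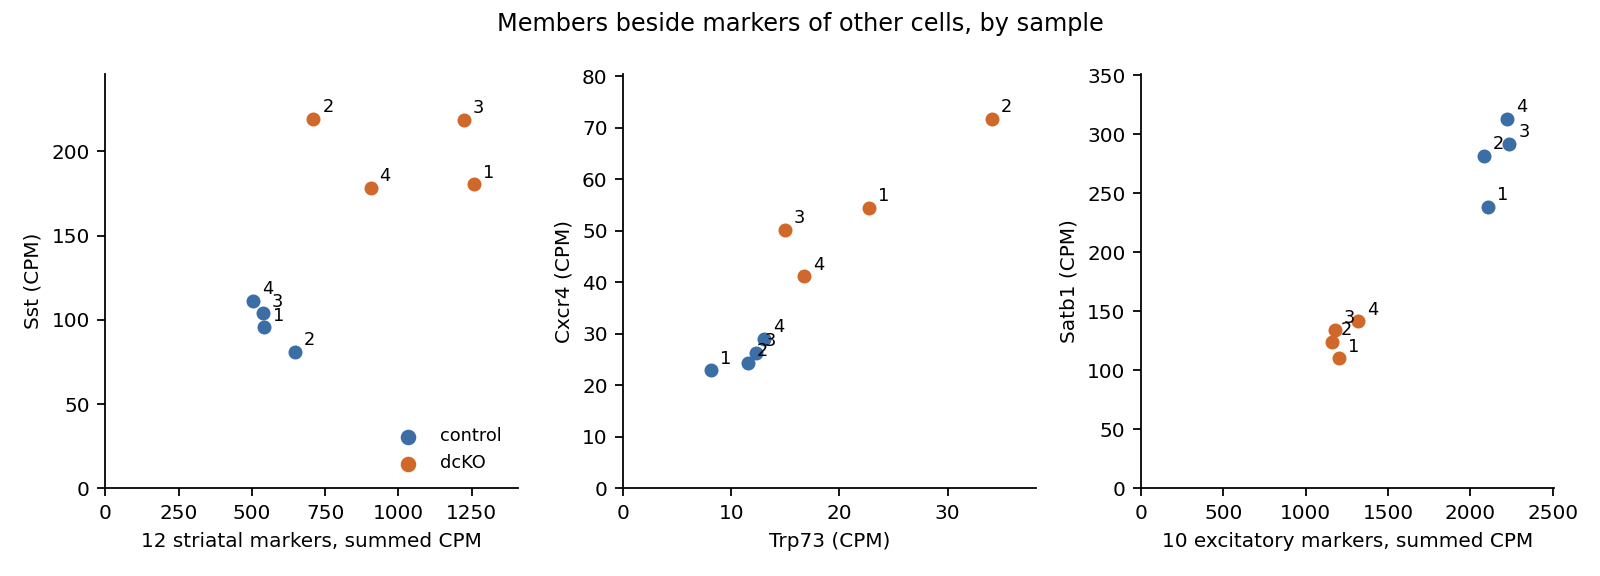
Sst, Cxcr4 and Satb1 (vertical axes, CPM) against the summed level of 12 striatal markers, the Cajal-Retzius cell marker Trp73 and the summed level of 10 excitatory neuron markers (horizontal axes, CPM) in 4 control (blue) and 4 dcKO (orange) samples, each point labelled with its replicate number. The dcKO replicate 2 has the lowest striatal sum of the dcKO samples, 710.1 CPM, with Sst close to that of replicate 3, and it is highest for Cxcr4 and Trp73.

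Choroid plexus markers, of which 3 of 6 rose, summed to 2.99 to 13 CPM in control and 7.52 to 1179 CPM in dcKO samples, the highest in dcKO replicates 2 and 1. Lhx6, Sst, Cxcr4 and Ackr3 were each highest in replicate 2, Sst by under 1 CPM over replicate 3. Meningeal fibroblast markers summed to 33.6 to 116 CPM in control and 15.2 to 182 CPM in dcKO samples, and none of the 8 passed the test at an adjusted p under 0.05 with edgeR, DESeq2 or limma-voom or at an unadjusted p under 0.05 with edgeR. Without dcKO replicates 1 and 2, Sst was at a log2 fold change of 1.02 (adjusted p = 8.37e-04), Satb1 at -1.03 (adjusted p = 5.02e-04) and Cxcr4 at 0.83, so 2 of the 4 rises held. No marker list held a gene at 0 in all 8 samples.

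The genes whose profile over the 8 samples was nearest to that of a member were searched among 11737 genes with a mean of at least 5 CPM, by the root-mean-square distance between mean-centred log2 CPM. Nearest to Lhx6 was Ccdc14, at a distance of 0.05, followed by Ppif and Tmed4. Dtx4, Lsm11 and Wwc1 were nearest to Satb1, Dtx4 at 0.05, and Trim36, Fbxo16 and Tram1l1 to Maf, Trim36 at 0.06. Sst had no such close neighbour, with Ier5l at 0.09, Rps27l at 0.11 and Gpx1 at 0.11. Vmp1, at 0.04, Slc25a33 and Fahd1 were nearest to Npy. Epb41l4aos, at 0.10, Fam181b and 2410006H16Rik were nearest to Cxcr4, and Ajuba, at 0.08, Dusp28 and Erh to Ackr3. Vip had a mean under 5 CPM and was not searched for.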

How the data were processed

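The authors deposited raw counts per gene for 4 control and 4 dcKO P3 cortices. RNA was isolated with TRIZOL, libraries were made with the TruSeq RNA v2 kit, which does not keep strand, and reads were aligned to mm10 and counted with featureCounts. The aligner, annotation, strand setting and handling of multi-mapping reads are not given in the sources used here.

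Identifiers were matched to symbols through GENCODE's mouse annotation of the same build (48349 of 48709 matched). Counts were tested with edgeR (version 4.0.16 in R 4.3.3) by its quasi-likelihood method, with TMM normalisation, the low-count filter of edgeR (minimum count 10), no covariates and Benjamini-Hochberg adjustment over 16525 genes at a threshold of 0.05. The alternatives were DESeq2 (version 1.42.0), limma-voom (version 3.58.1), other scalings and filters, the lane or replicate number in the model, and samples left out. Leaving out 2 dcKO samples together was chosen after seeing the data.

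On simulated counts for 16359 genes, of which 200 were changed 2-fold, the edgeR test recovered 82% of them. Of its calls 7.34% were false, at the threshold of 0.05. The simulation changed a far smaller share of genes than the 37.5% called in these data, so its percentages need not hold for them. Vip had the fewest counts of the members. No pair of replicates agreed within sampling noise.

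The members and gene lists were chosen with earlier results of these data known. Named are all members, in each list up to 3 called genes with the highest and 3 with the lowest log2 fold change, Gad1, Gad2, Nkx2-1, Cxcl12, Smarcc1 and Smarcc2, markers whose level bears on a member, and the 3 nearest profiles of each member. Some genes that this rule names are left out of the text.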

Additional observations from a re-analysis of the deposited data

How the results depend on the processing

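Over 18 alternatives, 135 of 144 fits of single members kept their direction and their side of the threshold, 7 kept the direction only, 2 became called and 0 reversed. Members called higher numbered 3 to 4 with each sample left out in turn and 2 without dcKO replicates 1 and 2, where Lhx6 and Ackr3 were lost, and 3 without dcKO replicates 1 and 3, where Ackr3 was lost. Library totals in place of TMM moved the all-gene median of log2 differences from 0.02 to 0.15 and added Maf (0.31, adjusted p = 0.0406 from edgeR) and Npy (0.29, adjusted p = 0.0450), giving 6 members higher. Satb1 was the 1 member called lower under each alternative. Of the gene lists, 10 GABAergic identity genes rose with TMM, 10 with DESeq2's size factors, 11 with library totals and 9 with either DESeq2 or limma-voom. The number of choroid plexus markers that rose was 3 in edgeR, 5 in DESeq2 and 1 in limma-voom, and that of cholinergic markers was 2, 2 and 1. Fits with the replicate block gave 4 members higher and 1 lower, as without it. Nothing in the labels says that equal numbers mark related samples, and the deviations of same-numbered samples correlated at 0.171, -0.068, 0.213 and -0.024, so the numbers were not treated as pairs. The cause of the lost calls was not tested. With 4 samples a group, the intervals of Maf, Npy and Vip leave room for changes of modest size in the given directions.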
